A study of Dahlia pinnata with 6 samples.

Results

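The row named miR858 was chosen by its exact name in a small RNA count table of dahlia petals, and it is 1 of 116 microRNA-named rows among 47083 rows, the other 46967 being contigs of a Trinity transcript assembly. The plants were of the bicolor cultivar Yuino, grown in a greenhouse, and each petal has a red region with pigment and a white region without it, which were cut apart before RNA extraction. Small RNA was sequenced from 3 libraries of the red part and 3 of the white part, with the same genotype and tissue label on all 6. The study asked whether flavonoids, the pigment family that colours the red part, hold back the Dicer-like enzyme DCL4. Whether replicate libraries stem from different plants is not stated in the labels, so the p-values describe variation among these 6 libraries, some of which may be technical.

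miR858 is a plant microRNA that pairs with transcripts of R2R3-MYB transcription factors and directs their cleavage. In Arabidopsis its targets include MYB activators of flavonol synthesis, so it sits above the pathway that also feeds anthocyanin pigment, and in other species MYB genes of either sign have been described as targets. Related background concerns miR828, which also targets MYB genes of anthocyanin control, and miR156, which acts on SPL genes that restrain anthocyanin synthesis in Arabidopsis. No mature sequence of dahlia miR858 was used here. Names in the table have at most 6 characters, so members such as an a and a b form of miR858, or a family with a longer number that begins the same way, would be joined in this row. The contigs carry no gene names in the table, so neither MYB or pigment transcripts nor markers of petal tissue were analysed here.

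The libraries held between 3277753 and 3662222 tabulated reads, of which miR858 took 29135 over all 6. In the red part miR858 had 6954, 3426 and 6071 reads in replicates 1, 2 and 3. In the white part it had 4626, 3974 and 4084 reads. Red replicate 2 was the lowest of all 6 libraries and the other red libraries were the highest, so the red values surrounded the white ones. The total of red replicate 2, 3515595 tabulated reads, lay between those of the other red libraries.

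Normalised counts, which are CPM values (tested reads scaled to a common library size, with edgeR's TMM correction), kept red replicate 2 lowest and the other red libraries highest, while the order among the white libraries changed. They were 1793, 995.9 and 1774 CPM in the red libraries and 1374, 1434 and 1215 CPM in the white libraries. The red mean was 1521 ± 454.9 CPM and the white mean 1341 ± 113.2 CPM (SD, n = 3 each). By edgeR's quasi-likelihood test over 7001 rows the log2 fold change of miR858, white against red, was -0.18 ± 0.20 SE (adjusted p = 0.784). Its 95% interval ran from -0.64 to 0.27, which is a fitted white to red ratio of 0.881 with limits of 0.643 and 1.21. A difference of that size in either direction was therefore not resolved with these libraries. Across all tested rows 1.06% were called at an adjusted p under 0.05, and 65.4% had a fitted log2 fold change farther from 0 than that of miR858. In dissected tissue, fewer cells that hold a microRNA and less of it in each cell cannot be told apart.

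**Figure D1:**
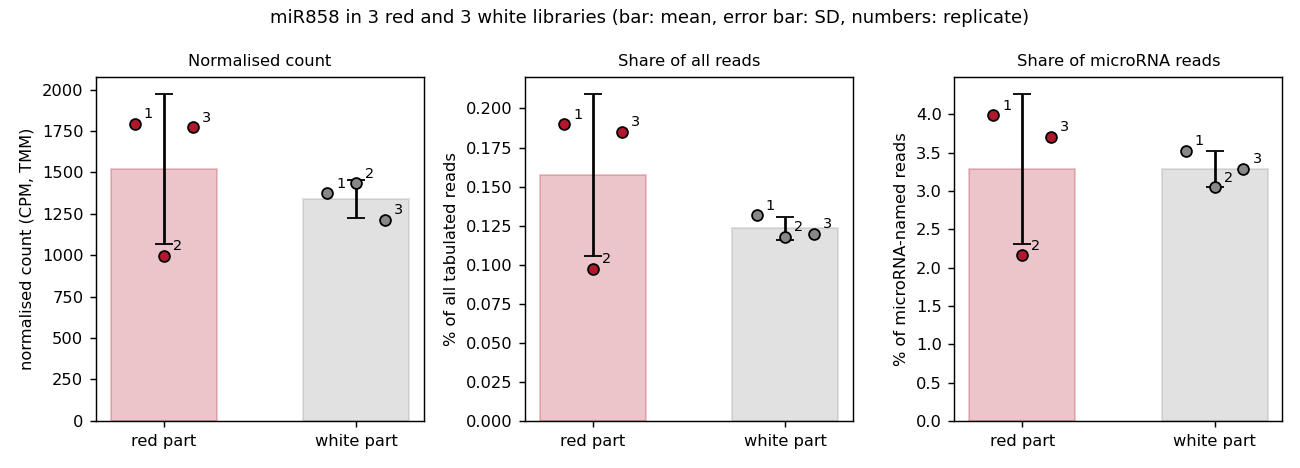
miR858 in the 3 red and 3 white libraries as normalised count (CPM), percent of all tabulated reads and percent of microRNA-named reads; bars are means, error bars SD, points single libraries with their replicate number. Red replicate 2 (995.9 CPM) lies below every white library and red replicates 1 and 3 (1793 and 1774 CPM) above every one.

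The size of the difference depended on red replicate 2. Without it the log2 fold change of miR858 was -0.41 ± 0.12 SE, with a 95% interval from -0.67 to -0.15, an unadjusted p of 0.0044 and an edgeR adjusted p of 0.107, so it still missed the threshold over all rows. With each other library left out it lay between -0.23 and -0.053. Over the 12 alternative settings the fitted value was below 0 in 12, the edgeR or DESeq2 adjusted p ranged from 0.107 to 1.00, and 1 interval, that without red replicate 2, lay wholly below 0. Among these values was -3.5e-05, with scaling to the microRNA total. The settings reuse the same libraries, so their shared sign is not independent support. Labels give red and white libraries the same replicate numbers, and the log2 ratio of white over red within a number was -0.38, 0.53 and -0.55 for replicates 1, 2 and 3. The second pair therefore went the opposite way to the other pairs.

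**Figure D2:**
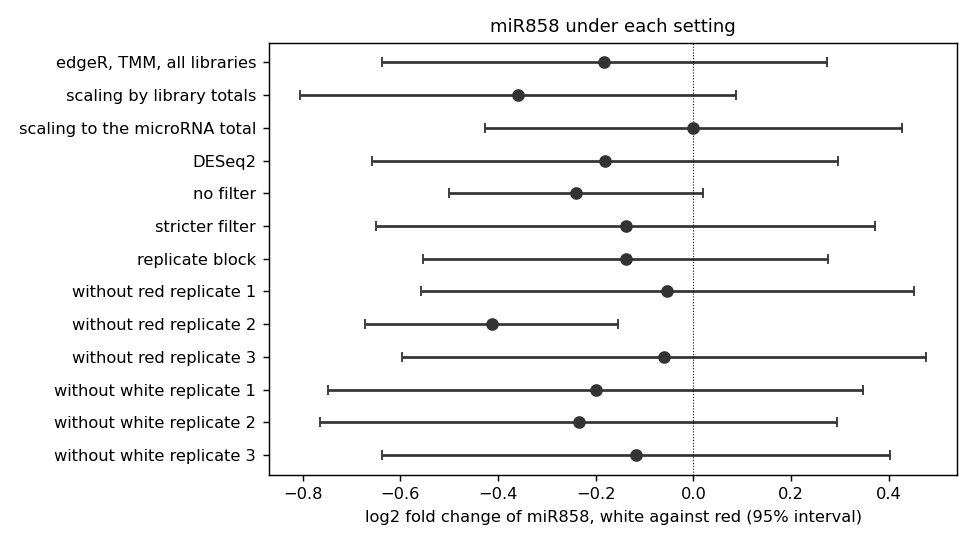
Fitted log2 fold change of miR858, white against red, with its 95% interval under the planned fit and 12 alternatives. All points lie below 0, from -0.41 without red replicate 2 to -3.5e-05 with scaling to the microRNA total.

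How the difference is expressed depends on what miR858 is measured against. Of all tabulated reads miR858 took 0.190% (95% Wilson interval 0.185 to 0.194), 0.0975% (0.0942 to 0.101) and 0.185% (0.181 to 0.190) in red replicates 1 to 3. It took 0.132% (0.128 to 0.136), 0.118% (0.114 to 0.122) and 0.120% (0.116 to 0.124) in white replicates 1 to 3. The red mean was 0.158% ± 0.052 and the white mean 0.123% ± 0.0074 (SD, n = 3 each; two-sided exact permutation p = 0.4, adjusted 0.6 over 3 shares). Intervals cover counting error only, since reads amplified by PCR are not independent molecules, and they are far narrower than the gap between red replicate 2 and the other red libraries.

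Of the reads with microRNA names alone, miR858 took the same mean share in both parts. The shares were 3.99% (95% Wilson interval 3.90 to 4.08), 2.16% (2.09 to 2.23) and 3.71% (3.62 to 3.80) in red replicates 1 to 3, and 3.52% (3.42 to 3.62), 3.05% (2.95 to 3.14) and 3.29% (3.19 to 3.39) in white replicates 1 to 3. The red mean was 3.29% ± 0.98 and the white mean 3.29% ± 0.24 (SD, n = 3 each; two-sided exact permutation p = 1, adjusted 1 over 3 shares). Equal means do not show equal levels here, since the red libraries held both the lowest and the highest of the 6 values. Without red replicate 2 the difference in mean share (white minus red) was -0.562 percentage points. As the base of these shares, reads with any microRNA name were 4.75% ± 0.24 of a red library and 3.75% ± 0.11 of a white one (SD, n = 3 each; two-sided exact permutation p = 0.1, the smallest that 3 against 3 libraries allow, adjusted 0.3 over 3 shares).

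Scaling moved the fitted value in the same way as it moved all rows. With scaling by library totals the log2 fold change of miR858 was -0.36 while the median of the tested rows was -0.17. With scaling to the microRNA total it was -3.5e-05 while the median of the tested rows was 0.18. Relative to that median, miR858 stood at -0.17 with TMM, -0.19 with library totals and -0.18 with the microRNA total. A change of scaling shifts all rows nearly alike, so the closeness of these values was fixed in advance and is no separate support.

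By level, miR858 held rank 5 among the 116 microRNA names over the 6 libraries, with rank 4 by the red mean and rank 5 by the white mean of normalised counts. The 116 include names of animal microRNAs, such as bantam and let-7a, and so do the 34 tested ones, such as miR-24 and miR-99. What reads those rows hold was not analysed here. Mature microRNAs have nearly the same length, so these levels are compared as read counts without division by length; reads of different microRNAs can still be captured with different efficiency in library preparation. miR396, which targets GRF growth regulators, miR159, which targets GAMYB genes, and miR166, which targets class III HD-ZIP genes, stood above it in 6 of 6 libraries. Those 3 names together took 83.5% ± 0.28 of microRNA reads in the red part and 79.7% ± 2.2 in the white part (SD, n = 3 each), and miR858 belonged to the group that follows. miR166, the next of the leaders above it, was at 8550 ± 1028 CPM (red) and 5366 ± 240.1 CPM (white; SD, n = 3 each), so that its lowest library was above every library of miR858.

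In single libraries the rank of miR858 ran from 4 to 8. The rank was 4 in red replicates 1 and 3 and 7 in red replicate 2. It was 5 in white replicates 1 and 3 and 8 in white replicate 2. Among all rows, contigs included, it ranked 43, 81 and 45 in red replicates 1 to 3 and 55, 59 and 58 in white replicates 1 to 3. In white replicate 2 the names above it included miR647, at 7093 reads in that library against 714 and 1218 in the other white libraries.

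The names next to it, miR162, miR156 and miR167, overlapped with it in the red part, and miR162 lay wholly above it in the white part. miR162, which targets the transcript of the Dicer-like enzyme that makes microRNAs, stood at 1024, 1612 and 1415 CPM in red and 1886, 1472 and 1559 CPM in white. miR858 exceeded it in 2 of 6 libraries, both red, and lay below it in each white library. miR156, the SPL regulator of the age pathway, stood at 799.3, 1485 and 1012 CPM in red and 1043, 1744 and 950.5 CPM in white. miR167, which targets auxin response factors, stood at 575.0, 1202 and 657.9 CPM in red and 1076, 1539 and 912.2 CPM in white. miR858 exceeded both in 4 of 6 libraries, falling below them in replicate 2 of each part. The levels of miR162, miR156 and miR167 thus overlapped with those of miR858 within the red part, and those of miR156 and miR167 overlapped with it in the white part too.

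**Figure D3:**
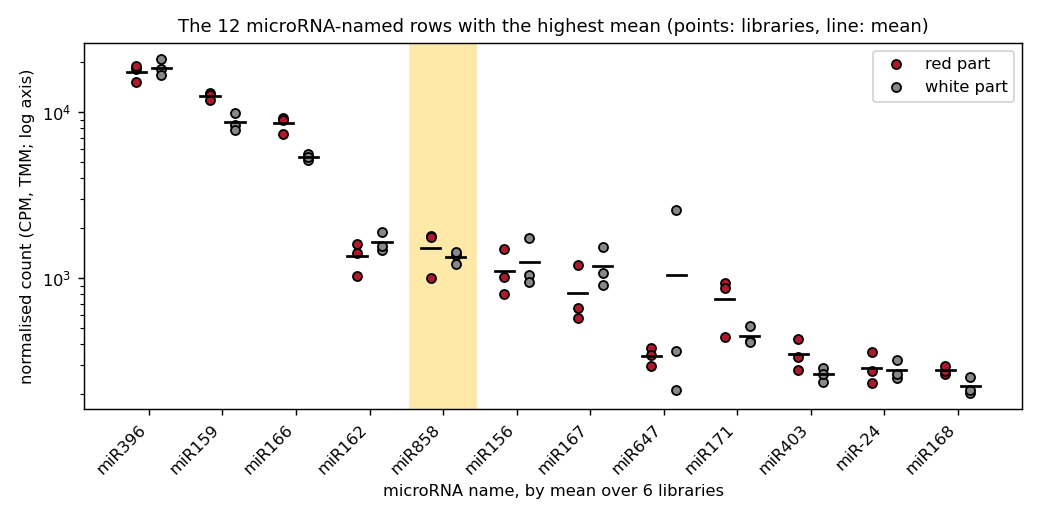
Normalised counts (CPM, log axis) of the 12 microRNA names with the highest mean, by library (points) and part, with the mean as a line; miR858 is shaded. miR396, miR159 and miR166 lie above it in every library, while miR162, miR156 and miR167 overlap with it in the red part.

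The spread of miR858 was uneven between the parts. The coefficient of variation of its normalised count was 29.9% over the red libraries and 8.44% over the white libraries, where counting alone would give 1.35% and 1.54%. Among the 34 microRNA names that were tested, its variation ranked 16 in red and 32 in white, counted from the most variable. The median over those names was 28.1% in red and 22.3% in white, and over the 10 most abundant ones it was 22.1% and 12.1%. Of all tested rows, 37.1% varied more than miR858 in red and 85.3% varied more in white. The white libraries therefore gave one of the most even values among the microRNA names, and the red variation was near the middle. edgeR put the biological coefficient of variation of miR858 at 21.7%, beside a trend of 20.1% for rows of its abundance. Whether the spread itself differs between parts was not tested.

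Red replicate 2 lay 44.2% below the mean of the other red libraries for miR858, a ratio of 0.558. Among tested rows of all kinds the median of this ratio was 0.995, and 6.86% of rows had a ratio as low as that of miR858 or lower. Of the 34 tested microRNA names, 13 were lowest of the red libraries in replicate 2, 11 were highest and 10 lay between, while 35.3% of all tested rows were lowest there. There were 6 tested names with a lower ratio than miR858, among them miR171 at 0.491 and miR170 at 0.522. In the same library miR156, miR167 and miR162 were the highest of the red libraries, with ratios of 1.64, 1.95 and 1.32. In white replicate 2 miR156, miR167 and miR858 were the highest of the white libraries (1744, 1539 and 1434 CPM) and miR162 the lowest (1472 CPM). Red replicate 2 thus differed from the other red libraries in the relative amounts of its abundant microRNAs. High miR156 and miR167 were not particular to it. The part of this in the miR858 result was not tested beyond the value without red replicate 2 given above.

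Over all 6 libraries the profile closest to that of miR858 was that of miR171, followed by miR170. Likeness was measured as Pearson's r of log2 CPM over the 6 libraries, among the 33 other tested microRNA names, and the libraries share the same scaling. The values were 0.85 for miR171, 0.79 for miR170, 0.67 for miR394, 0.67 for miR403 and 0.61 for miR399. miR171 and the near-identical miR170, which can share reads with it, target GRAS genes of the HAM group, miR394 an F-box gene, miR403 an Argonaute gene and miR399 a gene of phosphate homeostasis. After the mean of each part was removed the order was miR171 (0.98), miR170 (0.97), miR166 (0.93), miR394 (0.81) and miR403 (0.73). Without red replicate 2, over 5 libraries, the closest profile was that of miR159, whose r was 0.98 there and 0.25 over all 6. In those 5 libraries r was 0.97 for miR394, 0.97 for miR171, 0.96 for miR170, 0.94 for miR166 and 0.28 for miR399, so which name comes first depended on red replicate 2. These are descriptions of names picked for their likeness, with no test.

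**Figure D4:**
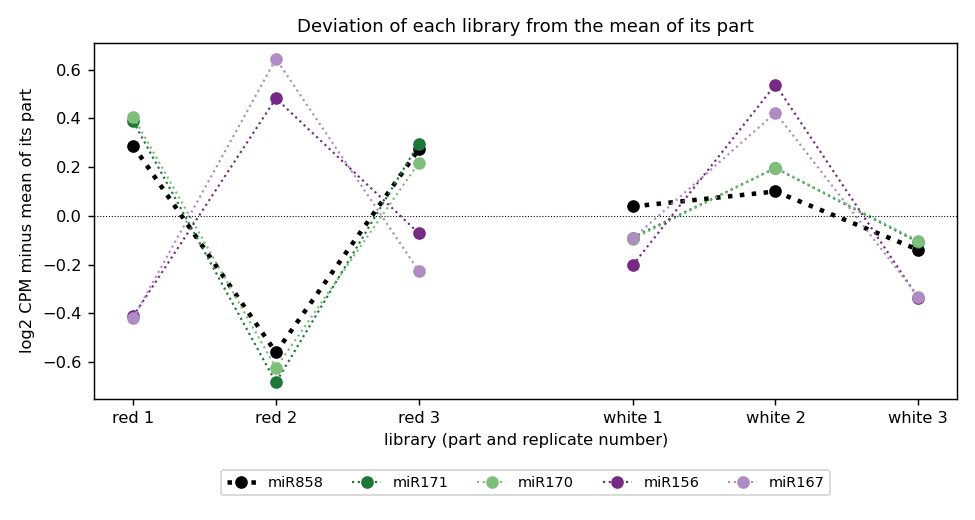
Difference of each library's log2 CPM from the mean of its part for miR858, miR171, miR170, miR156 and miR167; dotted lines only join the points of one name, as replicates have no order. miR858, miR171 and miR170 fall together in red replicate 2, where miR156 and miR167 are at their highest among the red libraries. In white replicate 2 each of these names is at its highest among the white libraries.

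miR171 was picked for its likeness to miR858, and their ratio, added after seeing the data, did not overlap between the parts. miR858 had 1.93, 2.25 and 2.04 reads per miR171 read in red replicates 1 to 3 and 3.28, 2.81 and 2.94 in white replicates 1 to 3. Each white library thus lay above each red one. The red mean was 2.07 ± 0.16 and the white mean 3.01 ± 0.24 (SD, n = 3 each), a 1.45-fold difference, and the two-sided exact permutation p was 0.1, the smallest possible, and 0.275 adjusted over 11 ratios. Red replicate 2, so low for miR858 itself, was not low for this ratio, and with each library left out the difference (white minus red) stayed between 0.80 and 1.04 reads. miR858 per miR170 read, which may count some of the same reads, was 5.51 ± 0.39 (red) and 8.57 ± 0.72 (white; SD, n = 3 each). Both names were picked for likeness to miR858, which favours a ratio that is even within each part.

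Of the 11 ratios of miR858 to another named microRNA, 7 had a higher mean in white, and in 4 (over miR171, miR170, miR166 and miR394) the parts did not overlap. In these 4 miR858 was higher in white per read of the other name. The other names themselves had lower fitted values in white, while miR858 stood at -0.18. Their log2 fold changes were -0.74 (miR171), -0.83 (miR170), -0.67 (miR166) and -0.84 (miR394). Of these 4 only miR166 was called (edgeR adjusted p = 0.0215). These ratios thus do not show a rise of miR858 itself in white. All 4 names were also among those picked for likeness to miR858 after the mean of each part was removed. That choice favours a ratio that is even within each part, for miR166 and miR394 as for the others. Over all 7000 other tested rows, 9.27% had a ratio to miR858 that did not overlap between parts, 3.1% with miR858 higher in white, and over the 33 other tested microRNA names 12.1% did, which are the same 4 names. miR858 per miR166 read was 0.193, 0.135 and 0.197 in red replicates 1 to 3 and 0.268, 0.255 and 0.227 in white replicates 1 to 3, again with each white library above each red one. Its red mean was 0.175 ± 0.035 and its white mean 0.250 ± 0.021 (SD, n = 3 each; two-sided exact permutation p = 0.1 and 0.275 after adjustment over the ratios). miR858 per miR159 read was 0.122 ± 0.038 (red) and 0.155 ± 0.0088 (white; SD, n = 3 each), with parts that overlapped (two-sided exact permutation p = 0.2). Against its neighbours the ratio had a lower mean in white and wide red spread: miR858 had 1.21 ± 0.57 reads per miR162 read in the red part and 0.827 ± 0.13 in the white part (SD, n = 3 each; two-sided exact permutation p = 0.4).

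**Figure D5:**
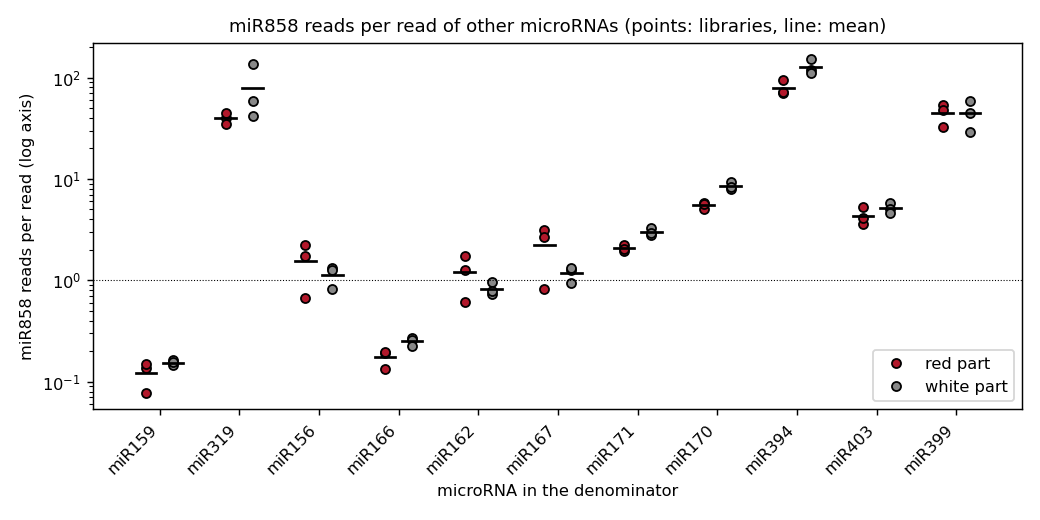
miR858 reads per read of 11 other microRNAs (log axis) by library (points) and part, with means as lines. The parts do not overlap for miR166, miR171, miR170 and miR394, where every white library lies above every red one, and they overlap for the other names.

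Set beside other microRNAs known from other plants to act on MYB genes or on anthocyanin control, miR858 and miR156 had small fitted differences of opposite sign, and miR159 and miR319 had lower fitted values in white. The list held 6 names, of which 4 were tested. miR157, which is near-identical to miR156, had at most 5 reads in a library, and no row was named miR828. miR159, which targets MYB genes of the GAMYB type, stood at 13023, 12740 and 11879 CPM in red and 8424, 9857 and 7823 CPM in white. Its white libraries lay below all red ones, with -0.53 ± 0.12 SE as the log2 fold change (adjusted p = 0.067 by edgeR, and 0.019 with the replicate number as a block). Libraries of the 2 parts did not overlap in 17.8% of all tested rows, and red lay wholly above white in 8.84% of them. Of the 34 tested microRNA names, 7 had red wholly above white and 2 had white wholly above red.

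miR319, which targets TCP genes and in part MYB genes, stood at 45.4, 28.8 and 39.7 CPM in red and 10.1, 34.3 and 20.5 CPM in white, with parts that overlapped (log2 fold change -0.83 ± 0.39 SE, adjusted p = 0.441 by edgeR). For miR156 the fitted log2 value was 0.18 ± 0.32 SE (adjusted p = 0.874 by edgeR), and its sign turned without red replicate 1 or white replicate 2. Of the 4 tested names, 3 had lower fitted values in white, with a median log2 fold change of -0.36, while 50.9% of all tested rows were lower, with a median of -0.01. Among the 34 tested microRNA names, which include these 4, 21 were lower in white, with a median of -0.18. By edgeR 0 of the 4 passed at an adjusted p under 0.05, beside 1.06% of all tested rows, and 1 had an unadjusted p under 0.05, beside 12.5% of them. Of the 34 microRNA names, 1 passed by edgeR and 13 had an unadjusted p under 0.05. By DESeq2 the counts for the 4 listed names were 0 and 2. With the replicate block 1 of the 4 passed (miR159), and with no filter 2 did (miR159 and miR319).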

How the data were processed

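The values are raw counts as the authors deposited them: 1 whole number of reads for each contig or microRNA name in each library. Reads were processed with cutadapt and Bowtie2, per the submitters' processing notes; versions, read lengths and the treatment of reads with several matches are not given in the sources used here. Every row has at least 1 read in red replicate 1, while 71 to 80 of the 116 microRNA names had reads in each other library. A contig or name with reads only in white libraries is therefore absent. The effect of this on the shares of rows lower or higher in white was not tested. Columns were matched to samples by titles.

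White was compared with red in all 6 libraries with edgeR 4.0.16 in R 4.3.3 (quasi-likelihood test, robust, TMM, minimum count 10) with Benjamini-Hochberg adjustment over 7001 rows. The SE is the log2 fold change divided by the square root of F. Likeness used a prior count of 2. Shares and ratios were compared by exact permutation (scipy 1.17.1). The edgeR script was tested on simulated data.

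Same-numbered libraries correlated at 0.20 to 0.29 after group means were removed, above the limit of 0.1 for pairs; other pairings lay between -0.19 and 0.01. The numbers come from the titles. The planned fit has no block, and the blocked value stands where it changed a call.

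Named were miR858, a list of MYB or anthocyanin microRNAs, the 2 names above and the 2 below by level, and the 5 most alike by each of 2 measures, with the 2 most alike contigs. The member and lists were chosen with earlier results of these data known. Ratios to named microRNAs were added after seeing the data. Alternatives were other scalings, DESeq2 1.42.0, other filters (none, minimum count 50), the fit with the replicate block and the omission of each library in turn.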

Additional observations from a re-analysis of the deposited data

How the results depend on the processing

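miR858 missed the threshold under all 12 alternatives run. The planned edgeR fit called 74 of 7001 rows. Of the same 7001 rows, 154 were called with library totals (45 rises and 109 falls in white). Scaling to the microRNA total gave 135 (116 rises, 19 falls) and the replicate block 338. Other settings tested other numbers of rows, so their counts cannot be compared directly. No filter gave 254 of 47083 rows and the stricter filter 51 of 2042. Leaving 1 library out gave 35 to 176, with 7791 to 8044 rows tested. DESeq2 called 109 of the 3064 rows to which it gave an adjusted p. The causes were not tested. With the replicate block miR858 had a log2 fold change of -0.14 (edgeR adjusted p = 0.779), and the exact paired sign-flip test of its shares gave p = 0.5 for all reads and p = 1 for microRNA reads, where the smallest possible is 0.25. The block added the calls of miR159 and miR167 (edgeR adjusted p = 0.019 and 0.014) and left the calls of the remaining named microRNAs as they were. The difference in microRNA share (white minus red, 2.2e-05 percentage points) ranged from -0.562 to 0.352 with 1 library left out, and was 2.28 with the 10 most abundant other names left out of the denominator (exact permutation p = 0.5). The difference in share of all reads, -0.034 percentage points, ranged from -0.064 to -0.018. The rank of miR858 was 4 or 5 with 1 library left out and 5 otherwise. Among other names miR399 turned to 0.053 with scaling to the microRNA total, and with 1 library left out miR399 ranged from -0.45 to 0.25 and miR156 from -0.14 to 0.46 (log2). The ratio of miR858 to miR399 (difference -0.36 reads) ranged from -7.85 to 7.22. The call of miR166 was lost with scaling to the microRNA total, with the stricter filter and without red replicate 1 or white replicate 1 or 3 (edgeR adjusted p from 0.057 to 0.217). Calls were gained by miR171 and miR170 without red replicate 2 (edgeR adjusted p = 0.0010 each) and with no filter (3.9e-05 and 5.7e-05), by miR170 also with library totals (0.036) and DESeq2 (0.048), by miR159 with library totals (0.025), no filter (1.2e-04) and without white replicate 2 (0.039), and by miR319 with no filter (0.027). With 3 libraries a part, differences of miR858 inside its interval could not be resolved.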

Other observations

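Contigs were also compared with miR858 by profile. The same counts were not made for other rows, so whether they are particular to miR858 was not tested. Of 6967 tested contigs, 53 (0.761%) had an r of at least 0.9 with miR858 over the 6 libraries, and 44 (0.632%) had an r of -0.9 or lower. After the mean of each part was removed, 195 (2.80%) reached 0.9. By r over the 6 libraries, with part means kept, the 2 highest were TRINITY_DN9948_c0_g1_i1 and TRINITY_DN36975_c0_g1_i1, each with an r of 0.99. Their levels were only 3.49 to 5.55 CPM and 3.49 to 6.14 CPM. Such low levels rest on few reads, the contigs were picked for this likeness, and no gene name is attached to them here.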
